A study of Mus musculus with 12 samples.

Results

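The 9 germinal centre genes S1pr2, Mybl1, Gcsam, Eaf2, Bcl6, Mef2b, Rgs13, Nuggc and Fas were followed in RNA sequencing of B220+ splenocytes from 12 mice. They are 9 of the 24421 genes counted, all 9 were found by symbol, and all 9 were among the 12878 genes that passed the filter on low counts. They had been chosen on measured values of the comparison of Max KO with WT cells, so their decrease there is a description and carries no test here. The groups, of 3 mice each, aged 4 to 5 weeks, were EuMyc Max KO mice (the Myc transgene and a conditional knockout of Max), EuMyc mice (the transgene with Max intact), Max KO mice (the conditional knockout without the transgene) and WT mice (Max intact, no transgene). EuMyc places Myc under the immunoglobulin heavy chain enhancer, which is active in B lineage cells, and the labels call the EuMyc cells premalignant. The driver of the Max deletion is not given in the sources used here. Each library holds the B220+ spleen cells of 1 mouse. Levels are in CPM, the reads of a gene scaled to a common library size, and a gene is said to have risen or fallen where edgeR's quasi-likelihood test gave a Benjamini-Hochberg adjusted p under 0.05 over all tested genes.

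Germinal centres form in spleen and lymph nodes when activated B cells divide quickly, mutate their antibody genes and are selected by helper T cells. BCL6 is the transcriptional repressor that the reaction depends on, and MEF2B is a factor that helps to activate Bcl6. MYC forms a dimer with MAX to bind DNA at E-box sequences, and without MAX this dimer cannot form. The genes were grouped under the name germinal centre genes lost without Max. In Max KO against WT, the comparison that chose them, 7 were past the threshold, and 6 when any 1 of 5 libraries was left out. That count describes the choice and is no support for the name. Bcl6 and Fas lay outside that threshold, and S1pr2, Gcsam, Bcl6, Rgs13 and Fas were higher, not lower, in the transgenic cells with the Max knockout. They are therefore called germinal centre genes here, without the word lost. Bcl6 and Fas are also transcribed in other lymphocytes, so their level is no count of germinal centre cells.

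Promoter windows are shown for 4 of the genes, since the dimer of MYC and MAX binds the E-box CACGTG and, more weakly, the variant CACGCG. The windows run from 250 bases before to 50 bases after the RefSeq start site (build GRCm38.p6), are written 5′ to 3′ on the strand of the gene, and carry the matching letters in capitals. Those of Bcl6 (chr16:23988803-23989102, minus strand) and Fas (chr19:34290409-34290708, plus strand) held CACGTG. That of S1pr2 (chr9:20976744-20977043, minus strand) held CACGCG, and that of Gcsam (chr16:45610190-45610489, plus strand) held neither and is given for contrast.
Bcl6: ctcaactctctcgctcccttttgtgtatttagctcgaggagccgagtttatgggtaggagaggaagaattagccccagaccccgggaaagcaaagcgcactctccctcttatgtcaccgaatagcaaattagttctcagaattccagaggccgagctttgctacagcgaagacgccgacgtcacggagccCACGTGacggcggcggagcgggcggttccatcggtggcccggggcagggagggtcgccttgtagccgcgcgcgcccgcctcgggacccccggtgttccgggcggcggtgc
Fas: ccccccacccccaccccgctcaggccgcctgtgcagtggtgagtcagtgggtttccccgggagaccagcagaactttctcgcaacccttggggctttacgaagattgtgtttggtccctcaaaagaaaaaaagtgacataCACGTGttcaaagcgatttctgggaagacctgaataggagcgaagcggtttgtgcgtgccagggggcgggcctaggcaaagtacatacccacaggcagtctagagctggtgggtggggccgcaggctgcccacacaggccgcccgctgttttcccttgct
S1pr2: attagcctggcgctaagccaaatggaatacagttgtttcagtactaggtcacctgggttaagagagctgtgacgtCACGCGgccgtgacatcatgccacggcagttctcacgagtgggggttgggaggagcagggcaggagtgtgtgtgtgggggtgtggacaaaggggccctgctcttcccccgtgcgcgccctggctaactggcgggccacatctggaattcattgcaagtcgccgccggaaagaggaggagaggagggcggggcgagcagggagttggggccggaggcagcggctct
Gcsam: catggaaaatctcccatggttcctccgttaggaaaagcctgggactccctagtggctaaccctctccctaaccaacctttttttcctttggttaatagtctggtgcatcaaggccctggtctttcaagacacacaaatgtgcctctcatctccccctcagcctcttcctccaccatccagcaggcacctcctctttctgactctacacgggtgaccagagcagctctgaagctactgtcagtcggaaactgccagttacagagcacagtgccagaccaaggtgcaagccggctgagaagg

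The table of windows held 10 windows for 7 of the genes, with more than 1 for Bcl6 and Eaf2. CACGTG, which reads the same on both strands, was in 2 of the 10 windows, against 7.15% of all 32851 windows of this length. It began 60 bases before the start site in Bcl6 and 110 bases before it in Fas. CACGCG, searched on both strands, was in 2 of the 10 windows, of S1pr2 (175 bases before the start site) and of Eaf2 (20 bases before it), against 9.27% of all windows. The BCL6 motif TTCCTNGAA, also searched on both strands, was in 1 of the 10, the second window of Bcl6 (168 bases before its start site), against 1.59% of all windows. These are matches of letters and not measured binding sites.

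Sequencing depth ran between 14973332 and 21671601 gene-assigned reads. Max was lower in all 6 knockout libraries than in all 6 with intact Max, with 105 ± 3.15 CPM in EuMyc Max KO, 128 ± 1.87 in EuMyc, 101 ± 1.28 in Max KO and 119 ± 16.8 in WT (SD, n = 3 each). Counts per gene do not show whether a transcript lacks the deleted part, so the completeness of the deletion cannot be read from them. The difference passed edgeR's test in EuMyc Max KO against EuMyc (log2 fold change -0.29, SE 0.0781; adjusted p = 0.00462) and not in Max KO against WT (-0.23, SE 0.0784; adjusted p = 0.0623), where it passed under 3 of 15 alternatives (adjusted p between 0.0337 and 0.207 over them). Myc was at 522 ± 39.5 CPM in EuMyc Max KO and 1010.4 ± 37.1 CPM in EuMyc (SD, n = 3 each). Markers of the B lineage were read in every group, 8 of 8 at 1 CPM or more, with summed levels of 7600 to 9250 CPM in EuMyc Max KO, 4370 to 5230 in EuMyc, 9320 to 10300 in Max KO and 11000 to 12000 in WT. In the EuMyc Max KO group, replicate 3 stood apart from replicates 1 and 2 in several lists. Its summed G2 and mitosis genes were at 1040 CPM against 3080 and 2280 in the other 2 libraries, and its pro-B and pre-B markers at 12.3 CPM against 53.8 and 54.3. Counts of called genes without that library are given for both comparisons that hold it.

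Per kilobase of exon, Bcl6 was the most abundant of the 9 in WT cells, at 14.03 ± 0.411 CPM per kilobase (SD, n = 3). Rgs13 (3.98 ± 0.446), Fas (3.90 ± 0.558), Gcsam (3.18 ± 0.0802), Mybl1 (3.08 ± 0.944), Nuggc (2.72 ± 0.527) and Eaf2 (2.44 ± 0.352) followed in WT cells, on the same scale. S1pr2 (1.71 ± 0.068) and Mef2b (1.09 ± 0.459) were the least abundant per kilobase in WT cells. In EuMyc cells the order on this scale was led by Eaf2, at 2.81 ± 0.299 CPM per kilobase, and Mybl1, at 2.54 ± 0.394, with Bcl6 next at 1.18 ± 0.228 (SD, n = 3 each).

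**Figure D1:**
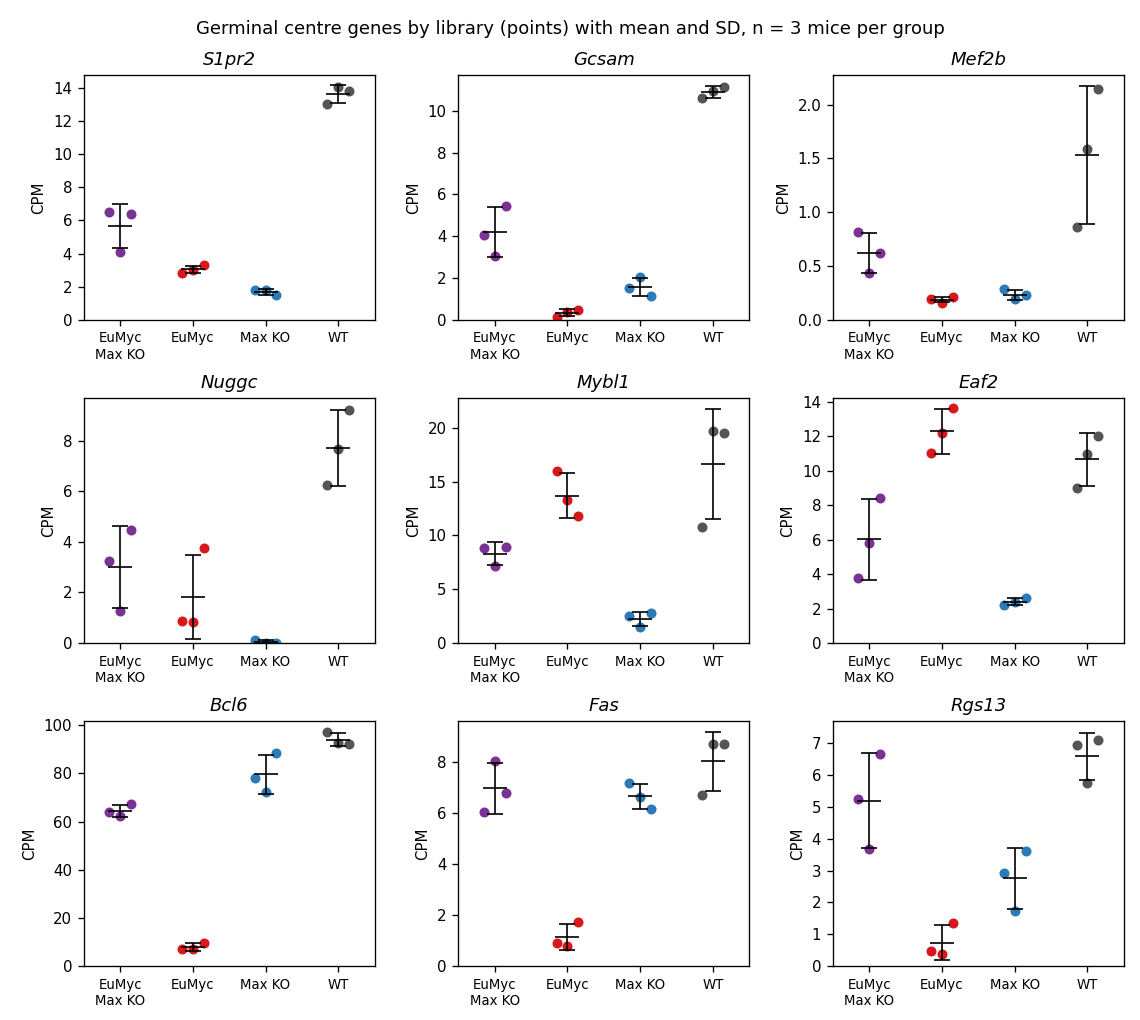
Level in CPM (vertical axis, from 0) of each of the 9 germinal centre genes in every library, by genotype group (horizontal axis). Points are mice, and the bars are the group mean and SD, n = 3. Eaf2 has its highest mean in EuMyc and the other 8 genes have theirs in WT. Gcsam, Mef2b, Bcl6, Fas and Rgs13 are lowest in EuMyc, and S1pr2, Nuggc, Mybl1 and Eaf2 in Max KO.

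The 9 genes did not share 1 order of levels across the 4 genotypes. The lowest mean was in EuMyc cells for Gcsam, Mef2b, Rgs13, Bcl6 and Fas and in Max KO cells for S1pr2, Nuggc, Mybl1 and Eaf2. In EuMyc cells Mybl1 was at 82.2% and Eaf2 at 115% of the WT mean, and the other 7 lay between 3.02% (Gcsam) and 23.7% (Nuggc). In Max KO cells Bcl6 was at 84.7%, Fas at 83.0% and Rgs13 at 41.8% of the WT mean, and the other 6 lay between 0.488% (Nuggc) and 22.5% (Eaf2). In EuMyc Max KO cells each of the 9 lay between 38.5% (Gcsam) and 86.8% (Fas) of its WT mean. In bulk RNA, fewer cells of a type and less RNA per cell cannot be told apart, which holds for every level below.

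S1pr2, the sphingosine-1-phosphate receptor that confines B cells to germinal centres through G alpha 13 (chromosome 9, 20962361 to 20976781, minus strand; gene positions are from GENCODE on mm10), was at 6.49, 4.11 and 6.39 CPM in the EuMyc Max KO libraries, 2.85, 3.03 and 3.29 in EuMyc, 1.81, 1.79 and 1.49 in Max KO and 13.01, 14.04 and 13.8 in WT. No group overlapped its neighbour in the order WT, EuMyc Max KO, EuMyc, Max KO. Gcsam, a signalling adaptor of germinal centre B cells that restrains their movement (chromosome 16, 45610380 to 45622867, plus strand), was at 4.06, 3.07 and 5.46 CPM in EuMyc Max KO, 0.145, 0.372 and 0.470 in EuMyc, 1.52, 2.05 and 1.14 in Max KO and 10.6, 10.97 and 11.1 in WT. Its order was WT, EuMyc Max KO, Max KO, EuMyc, again with no overlap between neighbours. The EuMyc values of Gcsam rest on 3, 7 and 9 reads.

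Nuggc, a GTPase gene of germinal centre B cells (chromosome 14, 65598546 to 65648531, plus strand), was nearly absent from Max KO libraries, with 2, 0 and 0 reads. The floor that 3 reads per library set was 0.192 CPM in Max KO replicate 2 and 0.171 CPM in replicate 3. Its level was 3.25, 1.26 and 4.47 CPM in the EuMyc Max KO libraries, 0.870, 0.850 and 3.76 CPM in the EuMyc libraries, and 6.25, 7.67 and 9.23 CPM in the WT libraries. The Max KO libraries together held 0.00511 of the WT level, with a 95% counting interval (exact conditional binomial) of 0.000617 to 0.0186. EuMyc replicate 3 lay apart from the other 2 EuMyc libraries, and the EuMyc Max KO and EuMyc groups overlapped. That EuMyc library was also the highest of its group for each of the other genes but Mybl1. Its mature B markers summed to 383 CPM, against 278 and 271 CPM in EuMyc replicates 1 and 2. Mef2b was the least abundant of the 9, with 8 to 15 reads per library in EuMyc Max KO, 3 to 4 in EuMyc, 3 to 5 in Max KO and 15 to 36 in WT. Its level was 0.812, 0.439 and 0.624 CPM in EuMyc Max KO, 0.193, 0.159 and 0.209 in EuMyc, 0.282, 0.192 and 0.229 in Max KO and 0.860, 1.59 and 2.14 in WT. Max KO and EuMyc overlapped for Mef2b and the other neighbours did not. An exon of Mef2b (chromosome 8, 70139711 to 70167488, plus strand) is shared with Borcs8 on the same strand, so reads from the shared part could have been left out as ambiguous.

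Mybl1, a MYB family transcription factor (chromosome 1, 9667415 to 9700209, minus strand), was at 8.87, 7.13 and 8.94 CPM in EuMyc Max KO, 16.0, 13.3 and 11.8 in EuMyc, 2.48, 1.53 and 2.74 in Max KO and 10.8, 19.7 and 19.5 in WT. WT replicate 1 lay well below the other 2 WT libraries, and it was the lowest WT library for each of the other genes but Bcl6 and Rgs13. Eaf2, a partner of ELL elongation factors (chromosome 16, 36792884 to 36875003, minus strand), was at 3.79, 5.81 and 8.42 CPM in EuMyc Max KO, 11.02, 12.2 and 13.6 in EuMyc, 2.20, 2.36 and 2.63 in Max KO and 8.997, 10.97 and 12.03 in WT. For both genes the EuMyc and WT libraries overlapped, the Max KO libraries were the lowest and the EuMyc Max KO libraries lay between. In EuMyc Max KO, replicate 3 was the highest library for Eaf2, as for Mybl1, Gcsam, Bcl6, Rgs13 and Nuggc. It was not the highest for S1pr2, Mef2b and Fas. A link with the lists in which that library stood apart was not tested.

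Bcl6 (chromosome 16, 23965052 to 23988852, minus strand) was at 63.9, 62.5 and 67.4 CPM in EuMyc Max KO, 6.96, 7.07 and 9.66 in EuMyc, 78.0, 72.4 and 88.5 in Max KO and 97.1, 92.7 and 92.1 in WT. No neighbours overlapped in the order WT, Max KO, EuMyc Max KO, EuMyc. An exon of the gene model Gm37419 lies on the opposite strand within Bcl6, and the strand setting of the counting is not given in the sources used here. Fas, the death receptor that marks germinal centre B cells in mice (chromosome 19, 34290666 to 34327772, plus strand), was at 6.06, 8.06 and 6.81 CPM in EuMyc Max KO, 0.919, 0.797 and 1.72 in EuMyc, 7.17, 6.65 and 6.17 in Max KO and 6.70, 8.70 and 8.70 in WT. Its EuMyc Max KO, Max KO and WT libraries overlapped, and the EuMyc libraries lay below all others. Rgs13, which ends G protein signals from chemokine receptors (chromosome 1, 144138654 to 144177372, minus strand), was at 5.25, 3.67 and 6.65 CPM in EuMyc Max KO, 0.484, 0.372 and 1.36 in EuMyc, 2.94, 1.73 and 3.60 in Max KO and 6.93, 5.74 and 7.09 in WT. Its EuMyc Max KO and WT libraries overlapped, Max KO lay below both and EuMyc was lowest.

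Max KO against WT is the comparison that chose the genes, so its values are given without a test. All 3 Max KO libraries lay below all 3 WT libraries for 8 of the 9, Fas being the exception, where 20.1% of all tested genes had Max KO below WT without overlap. The log2 fold change was -3.00 (SE 0.202) for S1pr2, -2.87 (SE 0.268) for Mybl1, -2.80 (SE 0.297) for Gcsam, -2.66 (SE 0.452) for Mef2b and -2.15 (SE 0.254) for Eaf2. It was -1.25 (SE 0.370) for Rgs13, just inside the threshold, and -0.24 (SE 0.103) for Bcl6 and -0.27 (SE 0.225) for Fas, outside it. At a Benjamini-Hochberg adjusted p under 0.05, 7 of the 9 were past the threshold. Rgs13 lay outside it when WT replicate 1, 2 or 3 or Max KO replicate 1 or 2 was left out, which left 6. Over all tested genes 7.74% were called lower and 7.27% higher, and nothing is read from the members' count, since this contrast chose them. Those percentages stand for 997 lower and 936 higher genes, which became 719 lower and 1130 higher when libraries were scaled by their totals alone. The total of 1933 depended on single libraries. It was 808 when WT replicate 1 was left out and 1206 for WT replicate 3. For Max KO it was 889 when replicate 1 was left out and 1060 for replicate 2. The median over the 9 was -2.66, against -0.00 over all tested genes, and it is the same with Nuggc at the upper end of its counting interval, -5.75.

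The main test of the genes is EuMyc Max KO against EuMyc cells, since Max KO against WT, which chose them, used none of its libraries. Earlier results of these data were known when the genes were chosen, so independence from the choice is not assured. With the Max knockout, the transgenic cells had more Bcl6, Gcsam, Rgs13, Fas and S1pr2 and less Mybl1 and Eaf2. Bcl6 rose 8.18-fold and Gcsam 12.7-fold as ratios of mean CPM, with log2 fold changes of 3.03 (SE 0.117; adjusted p = 5.08e-10) and 3.66 (SE 0.361; adjusted p = 1.1e-06) in the edgeR model, Benjamini-Hochberg adjusted. Rgs13 rose by 2.81 (SE 0.420) and Fas by 2.60 (SE 0.259) on the log2 scale, with adjusted p = 4.97e-05 and 1.21e-06 by the same edgeR test. All 3 EuMyc Max KO libraries lay above all 3 EuMyc libraries for each of these 4 genes, as for 38% of all tested genes. For S1pr2, Gcsam, Bcl6, Mef2b and Rgs13 EuMyc Max KO lay above EuMyc and Max KO below WT, both without overlap, as for 3.46% of all tested genes, but the position of Max KO below WT is what chose them.

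S1pr2 rose by 0.89 (SE 0.189) on the log2 scale, with adjusted p = 0.000897 by edgeR's quasi-likelihood test. Mef2b had a log2 fold change of 1.70 (SE 0.492; adjusted p = 0.00716 by edgeR), but at these low counts it did not pass the filter when only the EuMyc Max KO and EuMyc groups were fitted. Summed over libraries, Mef2b had 35 reads in EuMyc Max KO and 11 in EuMyc, a ratio of 3.33 with a 95% counting interval of 1.66 to 7.28. Eaf2 fell by 1.03 (SE 0.233; adjusted p = 0.00143) and Mybl1 fell by 0.72 (SE 0.237; adjusted p = 0.0149) on the log2 scale, by the same edgeR test, with no overlap between the groups. The Mybl1 call was lost without EuMyc replicate 1 (adjusted p = 0.063 by edgeR) and without EuMyc Max KO replicate 2 (adjusted p = 0.0591), within a range of 0.00549 to 0.063 over the alternatives tried. Nuggc did not pass, at a log2 fold change of 0.72 (SE 0.596; adjusted p = 0.295 by edgeR). Without EuMyc replicate 3, whose Nuggc level stood apart, it was 1.79 with an adjusted p of 0.00921, the lowest of a range that reached 0.685.

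Most genes differ in this comparison. Of all 12878 tested genes 37.6% were called higher and 36.1% lower, so 8 called members of 9, with 6 higher (Mef2b included) and 2 lower, stand near the background and are no result about the set. Without EuMyc Max KO replicate 3, 9405 genes and 8 of the 9 were called. The median log2 fold change of the 9 was 1.70, against 0.03 over all tested genes. Lists of other cell types moved in the same comparison. All 6 mature B markers rose, with sums of 2310 to 2840 CPM in EuMyc Max KO and 271 to 383 CPM in EuMyc. All 7 tested T cell and follicular helper T markers rose, with sums of 55.4 to 75.2 CPM in EuMyc Max KO and 7.65 to 10.9 CPM in EuMyc. Il21, which follicular helper T cells secrete, was not tested, with 0 to 5 reads per library in EuMyc Max KO, 0 in EuMyc, 0 to 2 in Max KO and 0 to 4 in WT. All 6 macrophage and monocyte markers rose, at 1950 to 3060 CPM in EuMyc Max KO and 477 to 587 CPM in EuMyc. Of 6 pro-B and pre-B markers 3 fell and none rose, at 12.3 to 54.3 CPM in EuMyc Max KO and 408 to 494 CPM in EuMyc. Erythroid markers (4 of 4), neutrophil markers (2 of 2 tested) and dendritic cell markers (4 of 5) rose too, with sums of 427 to 2000, 10.6 to 118 and 73.1 to 116 CPM in EuMyc Max KO, against 131 to 153, 4.02 to 7.25 and 11.7 to 13.6 CPM in EuMyc. The part of these shifts in the levels of the 9 genes was not tested. In Max KO against WT, 3 of 6 macrophage, 1 of 5 dendritic and 2 of 6 mature B markers rose, and 0 of 7 T cell markers was called by edgeR.

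**Figure D2:**
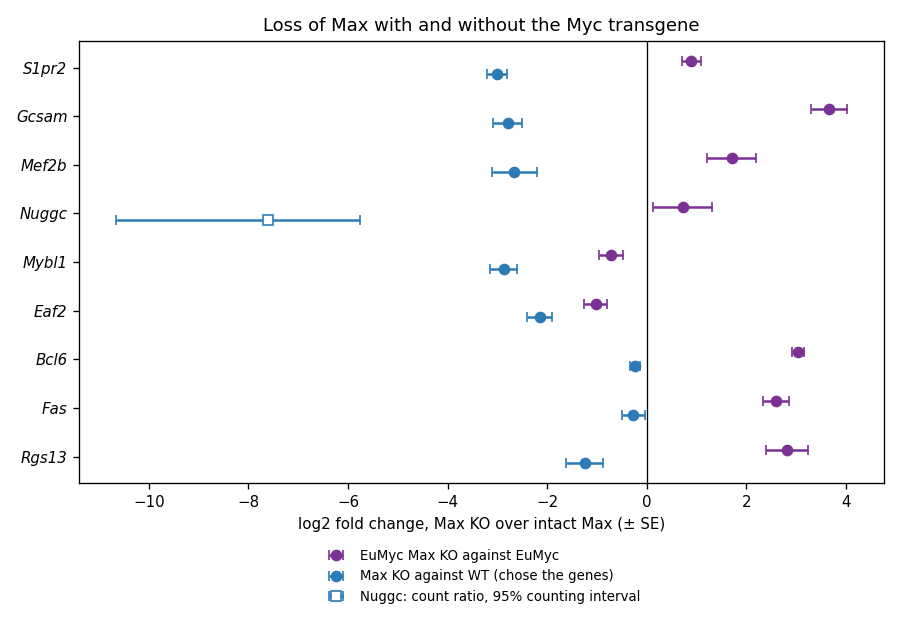
Log2 fold change (horizontal axis) of each of the 9 germinal centre genes (rows) for the Max knockout in cells with the Myc transgene (purple, EuMyc Max KO over EuMyc) and without it (blue, Max KO over WT, the comparison that chose the genes). Bars are SE, except for Nuggc in Max KO over WT, whose open square is a ratio of reads with its 95% counting interval. Bcl6, Gcsam and Rgs13 lie at 2.81 or above with the transgene, and Mybl1 and Eaf2 lie below 0 in both.

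**Figure D3:**
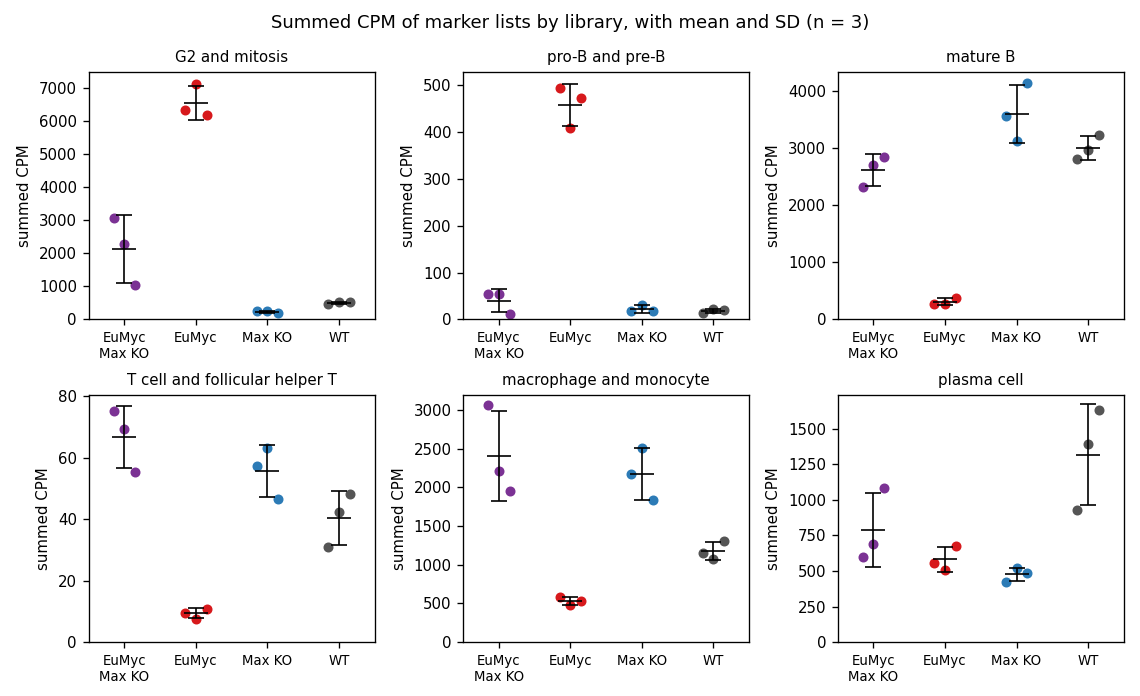
Summed CPM (vertical axis, from 0) of 6 marker lists in every library by genotype group, with the mean and SD (n = 3). The 3 EuMyc libraries are highest for G2 and mitosis genes and for pro-B and pre-B markers, and lowest for mature B, T cell and macrophage markers.

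EuMyc cells were set against WT cells. The WT libraries had served to choose the genes, as the group in which they were high, so a lower level in EuMyc cells is favoured by the choice and the values are given without a test. Bcl6 was at 7.90 ± 1.53 CPM in EuMyc cells, against 94.0 ± 2.75 CPM in WT cells (SD, n = 3 each), a log2 fold change of -3.57 (SE 0.119). The log2 fold change was -5.04 (SE 0.356) for Gcsam, -3.15 (SE 0.420) for Rgs13, -2.98 (SE 0.457) for Mef2b and -2.80 (SE 0.259) for Fas. It was -2.15 (SE 0.189) for S1pr2 and -2.08 (SE 0.587) for Nuggc. Mybl1 and Eaf2 were closest to their WT level, at -0.28 (SE 0.232) and 0.20 (SE 0.228). Past the threshold were 7 of the 9 lower and 0 higher, beside 34.9% of all tested genes lower and 36.7% higher, and nothing is read from that count. The median of the 9 was -2.80, against 0.01 over all tested genes.

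EuMyc Max KO cells were also set against Max KO cells, which asks what the transgene changes under the Max knockout. The Max KO libraries had served to choose the genes, as the group in which they were low, so a higher level in EuMyc Max KO cells is favoured by the choice and these values carry no test either. Mybl1 was at 8.31 ± 1.03 CPM in EuMyc Max KO cells and 2.25 ± 0.637 CPM in Max KO cells (SD, n = 3 each), a log2 fold change of 1.87 (SE 0.268). The log2 fold change was 1.74 (SE 0.203) for S1pr2, 1.42 (SE 0.299) for Gcsam, 1.38 (SE 0.488) for Mef2b and 1.32 (SE 0.256) for Eaf2. Nuggc had 169 reads in the EuMyc Max KO libraries and 2 in the Max KO libraries, a ratio of 76.8 with a 95% counting interval of 20.9 to 639.

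Rgs13, Fas and Bcl6 were closer to their Max KO level, at log2 fold changes of 0.91 (SE 0.370), 0.07 (SE 0.226) and -0.30 (SE 0.103). Past the threshold were 5 of the 9 higher and 0 lower, beside 10.7% of all tested genes higher and 3.69% lower, and nothing is read from that count. Those shares are 1378 higher and 475 lower genes, or 1215 and 695 with upper-quartile scaling. The total of 1853 became 2846 without EuMyc Max KO replicate 3. It was 1070, 1057, 1071 and 1078 with EuMyc Max KO replicate 1, EuMyc Max KO replicate 2, Max KO replicate 1 or Max KO replicate 3 left out, in that order.

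Other germinal centre genes did not share 1 pattern. Of 18 tested, 5 fell and 0 rose in Max KO against WT, with a median log2 fold change of -0.06, beside 7.74% of all tested genes lower and 7.27% higher. In EuMyc Max KO against EuMyc 7 rose and 8 fell, beside 37.6% of all tested genes higher and 36.1% lower. That split is near the background and is no result about these genes as a set. Lmo2, a transcriptional cofactor of germinal centre B cells, rose to 200.04 CPM in EuMyc Max KO, against 39.5 CPM in EuMyc (log2 fold change 2.34, SE 0.110), and Il21r, the receptor of the helper cytokine IL-21, rose by 2.56. Neil1, a DNA glycosylase, fell by 1.90 (SE 0.0721). Ezh2, the histone methyltransferase that dividing germinal centre cells carry, fell to 66.6 CPM in EuMyc Max KO, against 322 CPM in EuMyc (log2 fold change -2.27, SE 0.127). The hypermutation and class switch machinery had 12 of 15 genes lower and 1 higher in that comparison, with Lig4, which joins broken DNA ends, at -2.35, Exo1, a nuclease of mismatch repair, at -2.52 and Ung, which removes uracil from DNA, at -1.39. In EuMyc against WT 12 of the same 15 rose and 1 fell, beside 36.7% of all tested genes higher and 34.9% lower.

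Genes of cell division moved with the genotype as well. Of 18 G2 and mitosis genes 11 fell and 0 rose in Max KO against WT (median -1.22), all 18 rose in EuMyc against WT (median 3.75), all 18 fell in EuMyc Max KO against EuMyc (median -1.91) and all 18 rose in EuMyc Max KO against Max KO (median 3.02). In EuMyc Max KO against EuMyc, Bub1b, a spindle checkpoint kinase, fell by 2.62, Cdc20, which activates the anaphase complex, by 2.40 and Nek2, a centrosome kinase, by 2.23 on the log2 scale. Summed, they were at 1040 to 3080 CPM in EuMyc Max KO, 6190 to 7120 in EuMyc, 188 to 244 in Max KO and 454 to 525 in WT. Plasma cell markers, the other end of the germinal centre reaction, summed to 595 to 1080 CPM in EuMyc Max KO, 510 to 679 in EuMyc, 425 to 520 in Max KO and 931 to 1630 in WT, with 4 of 6 lower in Max KO against WT. In EuMyc Max KO against EuMyc 3 of the 6 rose and 1 fell, so these sums mix genes that moved in opposite directions. The part of either list in the levels of the 9 genes was not tested.

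Around S1pr2, 7 of 11 genes of sphingosine-1-phosphate signalling and the G alpha 13 pathway rose and 0 fell in EuMyc Max KO against EuMyc, with a median of 1.02. S1pr3, a receptor of marginal zone B cells, rose by 4.02 (SE 0.150), P2ry10, a receptor for lysophospholipids, by 2.11 (SE 0.0983) and Arhgef1, the exchange factor that links G alpha 13 to RhoA, by 1.02 (SE 0.0702). In Max KO against WT 2 of the 11 fell and 0 rose, with a median of -0.03, beside -3.00 for S1pr2. S1pr2 was chosen on that comparison, so nothing is read from the difference. Around Bcl6, corepressors and partners gave 3 higher and 4 lower of 9 in EuMyc Max KO against EuMyc, with Mta3 higher by 0.99 and Hdac3, the deacetylase of the BCL6 complex, and Tbl1x lower at -0.72 and -0.90. Genes that BCL6 is known to repress gave 8 higher and 3 lower of 14 in EuMyc Max KO against EuMyc, beside 37.6% of all tested genes higher and 36.1% lower. Among them Gpr183, a receptor that guides B cells out of follicle centres, rose by 3.15. Bcl2, the survival factor, rose by 2.92 and Ccnd2, a D-type cyclin, by 2.03. Bcl6 itself rose in the same comparison, and its part in these values was not tested.

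Some family members of the 9 genes moved in the same direction as them and others did not. In EuMyc Max KO against EuMyc, Mef2a and Mef2c rose by 0.90 and 1.59 and Mef2d fell by 1.11, beside 1.70 for Mef2b, and in Max KO against WT 0 of the 3 was called by edgeR. Myb, a factor of early lymphoid cells, fell by 2.54 and Mybl2, a cell cycle factor, by 1.47, beside -0.72 for Mybl1. Of 9 other RGS genes 6 rose and 2 fell, with Rgs1 at 4.44, Rgs3 at 2.82 and Rgs14 at 0.79, beside 2.81 for Rgs13. Of 6 EAF, ELL and AFF elongation factor genes 4 rose and 2 fell, with Ell2 at 2.002, Eaf1 at -0.37 and Aff1 at -0.75, beside -1.03 for Eaf2. Of 10 genes of the FAS death receptor pathway 5 rose and 3 fell. Cflar, an inhibitor of caspase 8, rose by 1.10 and Bid, a target of caspase 8, by 0.57, beside 2.60 for Fas.

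**Figure D4:**
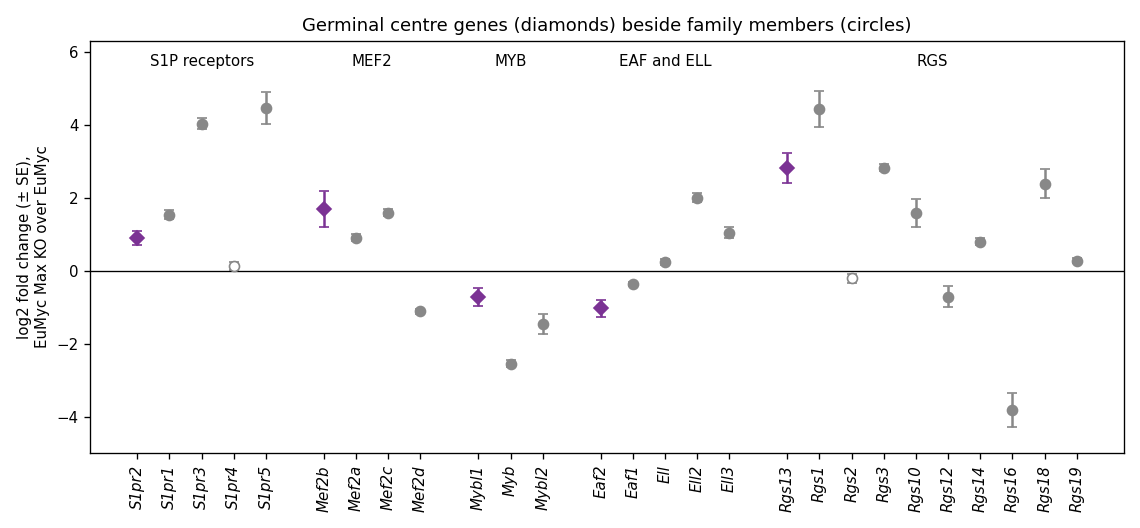
Log2 fold change of EuMyc Max KO over EuMyc (vertical axis, ± SE) for 5 of the germinal centre genes (purple diamonds) and the other genes of their families (grey circles), with open symbols where the adjusted p was 0.05 or more. Mybl1 and its relatives all lie below 0, while the MEF2, EAF and ELL and RGS families hold genes on both sides.

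Among the 9, Mef2b lay closest to their mean profile, with a root mean square difference of 0.373 log2 units over the 12 libraries after each gene was set to its WT mean, and Bcl6 lay farthest, at 1.13. The 0.5 CPM added before taking logs exceeds the Mef2b means of 0.234 CPM in Max KO and 0.187 CPM in EuMyc. It shrinks the log2 differences of Mef2b, so nothing is read from its place. The Max KO and WT parts of the mean profile are also what chose the genes. Of 9856 other genes with at least 5 CPM in WT, the closest to the same mean profile were Ildr1 (0.418), Plaur (0.559), Fam101b (0.579), Gm7609 (0.582), Ppl (0.587) and Fry (0.596), where the median gene was at 1.47. Ildr1 was at 1.48 CPM in EuMyc Max KO, 1.11 in EuMyc, 1.49 in Max KO and 5.03 in WT. Plaur was at 35.1 CPM in EuMyc Max KO, 14.4 in EuMyc, 36.0 in Max KO and 61.9 in WT.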

How the data were processed

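RNA of B220+ splenocytes from 12 mice was sequenced, 3 per genotype, grouped by labelled genotype, with replicate numbers as titled. Per the submitters' processing notes the tools were bcl2fastq 1.8.4, TopHat2 2.1.0 and HTSeq 0.6.1 on mm10. The authors deposited raw counts (whole reads for each symbol) in a table for every mouse, with no normalization. The sources used here give neither the annotation nor the strand setting. The 5 summary rows stayed out of library sizes and tests. Of all reads listed, 12.5% to 20.3% were outside genes, 0.748% to 1.45% ambiguous and 20.3% to 27.9% not uniquely aligned. Replicates differed by more than sampling noise (chi-square per degree of freedom 7.46 to 65.6).

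Counts were fitted with R 4.3.3 and edgeR 4.0.16: filterByExpr (12878 of 24421 genes kept), TMM scaling, and 1 robust quasi-likelihood model over all 12 libraries with 8 residual degrees of freedom, tested on 4 contrasts with Benjamini-Hochberg adjustment over all tested genes. CPM uses TMM-scaled library sizes, so values are relative to the RNA sequenced. The pipeline was tested on simulated data. Intervals and floors cover counting error only. Alternatives were other scalings and filters, DESeq2 1.42.0, limma-voom (limma 3.58.1), fits of 2 groups, a replicate block and each library left out. The members and lists were chosen with earlier results of these data known. Besides the members, Max and Myc, the text names from each list up to 3 genes with the smallest p in EuMyc Max KO against EuMyc, and the 6 genes closest to the members' mean profile (log2 of CPM + 0.5). Some lists share genes. Some genes that this rule selects are not reported here. Gene positions and exon lengths are from GENCODE vM21 (mm10), promoter windows from RefSeq (GRCm38.p6). The 6 switched heavy chain constant genes and Ly6g of the lists were not analysed here.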

Additional observations from a re-analysis of the deposited data

Results flagged for a closer look

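In 5 of the genes every EuMyc Max KO library lay above every EuMyc library while every Max KO library lay below every WT library, which held for 3.46% of all tested genes. The position of Max KO below WT is what chose the genes, so the 3.46% does not measure how rare the pattern is among genes so chosen. Of the 2594 tested genes with Max KO below WT without overlap, 446 also had EuMyc Max KO above EuMyc without overlap. EuMyc Max KO above EuMyc alone held for 38% of all tested genes. Bcl6 did not pass the threshold in Max KO against WT. The log2 change with the transgene minus that without it was 6.46 for Gcsam, 4.36 for Mef2b, 4.06 for Rgs13, 3.89 for S1pr2 and 3.27 for Bcl6. This difference was not tested, because the comparison of Max KO with WT chose the genes and its direction was fixed by that choice. The mature B, T cell and macrophage marker sums also lay higher in every EuMyc Max KO library than in every EuMyc library, and their part in the difference was not tested.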

How the results depend on the processing

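Of 120 recomputed counts of calls 110 stayed within 1.5 times the reported count. The 120 mix counts over all tested genes with counts over the 9, and a count over the 9 can hardly leave that band. The 10 that left it were all counts over all tested genes. They lay in Max KO against WT and in EuMyc Max KO against Max KO. All 9 genes of EuMyc Max KO against EuMyc kept their direction under the alternatives in which they were tested. Mef2b was not tested with a minimum of 1 CPM, or with only those 2 groups fitted, because the filter removed it. Calls were 808 to 1565 genes in Max KO against WT and 1057 to 2846 in EuMyc Max KO against Max KO with 1 library left out, and 851 in that comparison with only its 2 groups fitted. Fas in EuMyc Max KO against Max KO changed sign to -0.000194 without Max KO replicate 3 and -0.0502 without EuMyc Max KO replicate 2, the lowest value with 1 library left out, and was highest at 0.158 without EuMyc Max KO replicate 1. The cause was not tested. Scaling by totals moved the median of all genes by -0.10 in EuMyc against WT and 0.12 in EuMyc Max KO against EuMyc, and upper-quartile scaling by -0.13 in the first. With the replicate block 1738, 9181, 9440 and 1822 genes were called when the comparisons ran from Max KO over WT and EuMyc over WT to EuMyc Max KO over EuMyc and over Max KO, and 7, 7, 8 and 7 of the 9 genes, against 7, 7, 8 and 5 without it. Same-numbered libraries of different groups did not all correlate above 0.1 in their deviations from the group means (-0.124 to 0.378), and no label says what a number marks, so the number was not used as a pairing. As a hint from the data towards shared numbers, 8 of 12 libraries correlated best with one of their own number, where 3 of the 9 libraries of other groups carry it.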
